A study of Homo sapiens with 6 samples.

Results

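The genes described are the well expressed members of the ZNF family, named zinc finger proteins, in HMC3, a human cell line derived from microglia and immortalised. They were selected on their measured level and their name: the rows whose symbol is ZNF followed by a number, with or without 1 closing letter, and whose mean level over the 6 libraries was at least 10 CPM (counts scaled to a library of 1000000). The contrast between the groups is not part of this rule, but the set was chosen with earlier results of these data known. The rule gave 167 genes of the 530 with such a symbol in a table of 27469 genes. The Control group holds 3 libraries of HMC3 cells labelled Control, with no agent named, and the IL-33 group holds 3 libraries of HMC3 cells kept with the cytokine interleukin-33 for 24 h. All 6 libraries come from the same line, and neither a dose nor whether the replicates are separate cultures is given in the sources used here. The p-values therefore rest on the variation among these libraries, and this variation may be technical. Each gene was counted by a tag near the 3' end of its transcripts. The comparison asks whether HMC3 cells kept with IL-33 hold more or less mRNA of these genes than Control cells.

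Most ZNF proteins bind DNA through zinc fingers of the C2H2 type, short loops in which a pair of cysteines and a pair of histidines hold a zinc ion. In the largest class, a KRAB box at the start of the protein recruits the corepressor TRIM28, which brings the histone methyltransferase SETDB1 and heterochromatin proteins to the bound site, often a retrotransposon. Other ZNF proteins activate or repress promoters, bind RNA, or act on ribosomes, and share little beyond the finger. IL-33 signals through its receptor ST2 to NF-kB and MAP kinases.

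The finger itself is shown for 5 members, to let the unit that defines the family be seen beside the levels: a pair from the lower members of smallest p (ZNF430 and ZNF91), 2 from the higher members (ZNF480 and ZNF514) and 1 of the most abundant (ZNF148). Each run holds 63 bases of the GENCODE 29 coding sequence, 5' to 3', from the first codon of the first finger with the most common spacing to its last, and the codons of the 2 cysteines and 2 histidines are in capitals.
ZNF430: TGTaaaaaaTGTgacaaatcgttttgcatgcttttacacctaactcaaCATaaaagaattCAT
ZNF91: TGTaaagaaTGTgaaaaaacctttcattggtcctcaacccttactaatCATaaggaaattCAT
ZNF480: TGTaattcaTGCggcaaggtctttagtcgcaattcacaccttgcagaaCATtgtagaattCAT
ZNF514: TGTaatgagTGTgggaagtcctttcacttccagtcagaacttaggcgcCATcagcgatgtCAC
ZNF148: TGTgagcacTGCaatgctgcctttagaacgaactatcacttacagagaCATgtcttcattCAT
The runs start at base 619 of the coding sequence in ZNF430, 634 in ZNF91, 697 in ZNF480, 616 in ZNF514 and 517 in ZNF148. ZNF430 and ZNF91, which lie in the same gene array, shared 42 of the 63 bases, the most of any pair among the 5. The lowest identity was 24 of 63, between ZNF514 and ZNF148. Tags near the 3' end of a transcript do not read this part of it, so the likeness of the fingers has no direct bearing on the counts.

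Single values below are CPM scaled by TMM, which evens out composition between libraries. Library totals ran from 5739947 to 10217529 counts, and Control 3 was the smallest. Control 3 also stood apart from the other libraries of its group: its chi-square against Control 1 and 2, per degree of freedom, was 16.8 and 15.7, against 5.63 to 7.74 for the other pairs within a group. For a number of the members named below, the fold change is therefore also given without it, or without another library that moved the value. Over the 12125 genes that passed the low-count filter, the fitted biological coefficient of variation was 18.8%. Of 10 defining microglia markers, 6 had 0 counts in all libraries (ITGAM, CX3CR1, P2RY12, TMEM119, SPI1 and TYROBP), and the sum of the 10, scaled to the library total alone, lay between 3.22 and 4.36 CPM in Control and between 2.05 and 4.89 CPM with IL-33. Of 10 mesenchymal markers, 7 passed the low-count filter, COL3A1 and LUM had 0 counts in all libraries, and DCN had a mean of 0.248 CPM. The sum of these 10, led by FN1 and VIM, lay between 5680 and 7060 CPM in Control and between 6090 and 6910 CPM with IL-33. Summed in the same way, 5 astrocyte markers lay between 1.94 and 2.72 CPM in Control and between 0.881 and 2.89 with IL-33, and 5 endothelial markers between 0.0 and 0.363 CPM in Control and between 0.0 and 1.99 with IL-33. The 5 neuron markers lay between 24.0 and 32.1 CPM in Control and between 29.7 and 37.8 with IL-33. Of these, TUBB3 was at 24.9, 21.3 and 32 CPM in Control and 33.1, 27.0 and 23.6 with IL-33. SNAP25 was at 2.48, 2.16 and 1.27 CPM in Control and 3.62, 4.79 and 3.42 with IL-33, with no overlap (log2 fold change 0.97 ± 0.53, SE; edgeR adjusted p = 0.999). The part of any of these cells in the members' levels was not tested. The label microglia is thus not borne out by its defining markers, and HMC3 is used below as the name of the line alone. In a bulk culture, fewer cells with a transcript and less of it per cell cannot be told apart.

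No ZNF member changed with IL-33 past the threshold. All 167 passed the filter on low counts, and edgeR's quasi-likelihood test, adjusted over all genes by Benjamini-Hochberg, called 0 of them at 0.05, with a smallest adjusted p of 0.999. The background was the same: 0 of 12125 genes were called (0.0%). At an unadjusted p under 0.05 stood 2 members (1.2%), ZNF277 higher and ZNF430 lower. This compares with 2.43% of all genes tested and 2.03% of those at 10 CPM or more. DESeq2 called 0 members and put 1, ZNF430, at an unadjusted p under 0.05, against 355 of all 17264 genes it tested. Limma-voom also called 0 and put 2 there, ZNF430 and ZNF514, against 340 of all 12125 genes.

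The members' fold changes were small and centred near 0. Their median log2 fold change, IL-33 against Control, was -0.03, with quartiles of -0.13 and 0.09 and a range from -0.51 to 0.60, and over all genes tested the median was -0.01. A log2 fold change above 0 was found for 71 members (42.5%), against 48.9% of all genes tested and 47.2% of the 8329 at 10 CPM or more. The change was over 0.5 in size in 3 members, ZNF514 upward and ZNF91 and ZNF197 downward. For 159 members (95.2%) the 95% confidence interval of the log2 fold change lay wholly between -1 and 1, so that a doubling or a halving fell outside it. The same held for 73.4% of all genes tested and 96.9% of those at 10 CPM or more. The 8 members whose intervals reached past 1 in size were ZNF91, ZNF514, ZNF668, ZNF35, ZNF738, ZNF692, ZNF747 and ZNF197, with levels between 10.1 and 15.4 CPM. The plot of fold change against level places the members in the cloud of all genes.

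**Figure D1:**
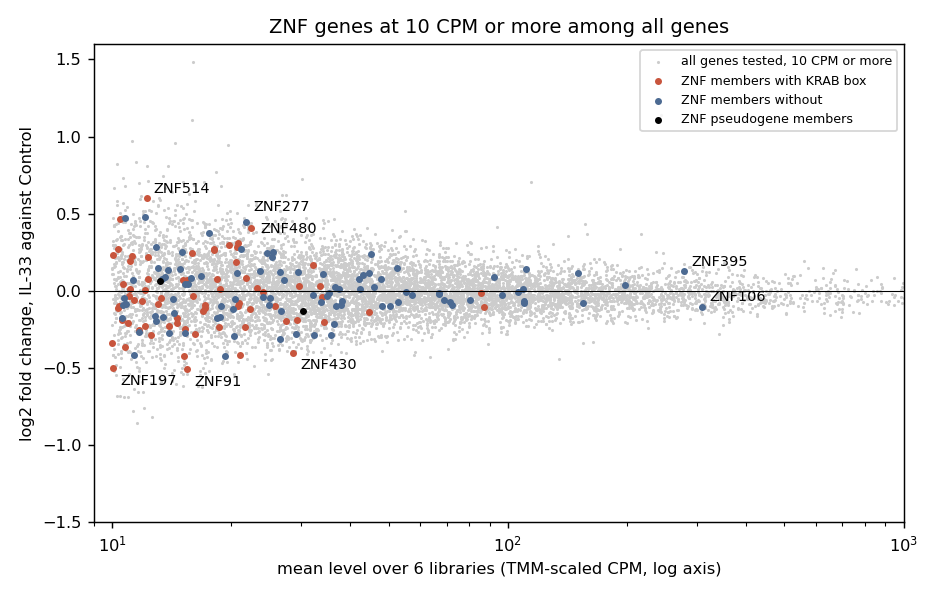
Log2 fold change, IL-33 against Control, against the mean level over 6 libraries in TMM-scaled CPM (log axis), for members with a KRAB box (red), without (blue) and pseudogenes (black), over all tested genes between 10 and 1000 CPM (grey). The members lie between -0.51 and 0.60, and their spread narrows as the level grows.

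As a sum, the ZNF members held nearly the same share of the counts in all 6 libraries. Their summed level, scaled to the library total alone, was between 5602 and 5720 CPM, or between 0.56% and 0.572% of the counts. The median deviation of a member from its own mean was 0.01, -0.02 and 0.04 on the log2 scale in Control 1, 2 and 3, and 0.02, -0.01 and -0.03 in IL-33 1, 2 and 3. Control 3 held the highest value of 45 members (26.9%) and the lowest of 41 (24.6%), and over all genes at 10 CPM or more these shares were 30.1% and 27.3%. Single members thus sat at the extremes in Control 3 more often than in any other library, in both directions, while the median over members hardly moved. The plot of deviations by library shows the wider spread of that library.

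**Figure D2:**
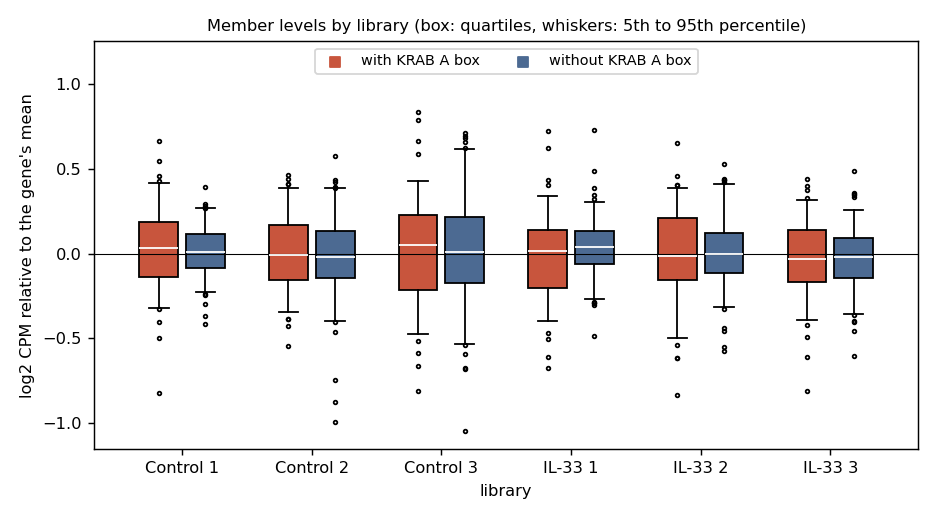
Log2 CPM of each member relative to its mean over the 6 libraries, by library, for the 70 members with a KRAB A box (red) and the 95 without (blue); boxes are quartiles, whiskers the 5th and 95th percentile and points the members outside them. The medians lie near 0 in every library, and the whiskers reach farthest in Control 3.

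In 10 members the IL-33 and Control values did not overlap. All IL-33 values were above all Control values in 7 members (4.19%), against 4.54% of all genes tested, and below in 3 members (1.8%), against 3.51%. Among all genes at 10 CPM or more, these shares were 3.87% upward and 3.3% downward. The members' shares thus lie near or under both backgrounds. The 7 that were higher were ZNF451, ZNF800, ZNF134, ZNF107, ZNF362, ZNF608 and ZNF184, and the 3 that were lower were ZNF791, ZNF430 and ZNF91. The separation was narrow in the more abundant of these. ZNF451, which encodes a SUMO ligase, was at 150, 142 and 140 CPM in Control and 155, 156 and 157 with IL-33 (log2 fold change 0.12 ± 0.10, SE). ZNF800 was at 30.9, 33.7 and 33.8 CPM in Control and 36.2, 35.4 and 34.2 with IL-33 (log2 fold change 0.11 ± 0.16). For both genes the 95% interval of the fold change includes 0. ZNF608 was at 11.9, 12 and 11.0 CPM in Control and 14.1, 14.7 and 13.8 with IL-33 (log2 fold change 0.28 ± 0.24). ZNF791, a KRAB gene, was at 30.4, 29 and 34.4 CPM in Control and 27.7, 27.1 and 27.2 with IL-33 (log2 fold change -0.19 ± 0.17).

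Among the members that were higher with IL-33, ZNF277 had the smallest p. Its gene lies on chromosome 7 from 112206588 to 112343096 on the plus strand (GRCh38), and it has no KRAB box. It stood at 22.0, 18.5 and 14.7 CPM in Control and 27.2, 21.8 and 27.0 with IL-33. Its lowest IL-33 value, 21.8, was just below the highest Control value, so the groups overlapped by 1 library on each side. The log2 fold change was 0.45 ± 0.21 (SE; 95% interval 0.01 to 0.88; edgeR unadjusted p = 0.0445, adjusted p = 0.999). With each library left out in turn it stayed between 0.31 and 0.60. Of the 50-base stretches in the last 500 bases of its transcripts, 15% also occur in the transcript of another annotated gene, RN7SKP187, and how tags from such stretches were counted is not given in the sources used here.

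ZNF480, a KRAB gene of the chromosome 19 arrays (52297177 to 52325922, plus strand), was at 17.7, 22.2 and 17.9 CPM in Control and 29.8, 25.8 and 21.2 with IL-33. Here too 1 IL-33 library, the third, lay within the Control range. The log2 fold change was 0.41 ± 0.20, with a 95% interval from -0.02 to 0.84. ZNF514, a KRAB gene on chromosome 2 (95147330 to 95165413, minus strand), had the largest change of any member, at 0.60 ± 0.30 with an interval from -0.03 to 1.22. Its values were 6.45, 10.9 and 11.9 CPM in Control and 19.3, 10.4 and 14.4 with IL-33. Control 1 and IL-33 1 lay farthest apart: without IL-33 1 the log2 fold change was 0.35, and without Control 1 it was 0.36. ZNF514 overlaps the more abundant MRPS5 on the same strand.

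Of the 6 higher members with the smallest p, ZNF362 alone had groups that did not overlap, at 16.2, 15.6 and 14.1 CPM in Control and 24.4, 17.6 and 17.8 with IL-33. Its log2 fold change was 0.38 ± 0.22, and IL-33 1 stood above the other 2 libraries of its group: without it the value was 0.20. ZNF668 was at 10.7, 6.25 and 13.6 CPM in Control and 15.3, 13.4 and 13.4 with IL-33 (log2 fold change 0.48 ± 0.29, and 0.22 without Control 2). ZNF747 was at 8.04, 11.9 and 6.33 CPM in Control and 11.4, 11.7 and 13.4 with IL-33 (log2 fold change 0.46 ± 0.29). Without Control 2 this was 0.75, and without Control 3 it was 0.29. In both genes 1 Control library lay inside the IL-33 range. For ZNF747, 50% of the 50-base stretches at the 3' end are shared with the annotated AC002310.5, so its level is uncertain.

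ZNF430 had the smallest p among the members that were lower, and of all members. It encodes a KRAB protein with 11 fingers and lies on chromosome 19 from 21020620 to 21060050 on the plus strand. Control held 31.2, 29 and 37.8 CPM and IL-33 held 23.6, 21.9 and 28.4, with no overlap. The gap between the groups, from 28.4 to 29 CPM, was narrow beside the spread within them. The log2 fold change was -0.40 ± 0.18 (SE; 95% interval -0.79 to -0.02; edgeR unadjusted p = 0.0407, adjusted p = 0.999), and it stayed between -0.52 and -0.29 with each library left out in turn.

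ZNF91, whose protein silences SVA retrotransposons, lies in the same array (23304991 to 23395560, minus strand) and carries 31 fingers. It stood at 15.7, 15.1 and 23.9 CPM in Control and 13.0, 10.5 and 14.6 with IL-33. Its groups did not overlap, but 23.9, in Control 3, was far above the other 2 Control values. The log2 fold change was -0.51 ± 0.25, with an interval from -1.03 to 0.01, and it was -0.28 without Control 3. ZNF316 depended on the same library more strongly: at 17.0, 20.6 and 35.1 CPM in Control and 20.5, 15.5 and 17.8 with IL-33, its log2 fold change of -0.42 ± 0.25 became -0.07 without Control 3. ZNF408, in which mutations cause an eye vessel disease, was at 22.8, 14.1 and 29.5 CPM in Control and 15.7, 17.9 and 15.7 with IL-33, at -0.42 ± 0.25, at -0.18 without Control 3 and at -0.66 without Control 2.

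ZNF217, an oncogene whose protein sits in CoREST repressor complexes, was at 33.8, 42.4 and 42.0 CPM in Control and 36.4, 30.5 and 29.9 with IL-33. Control 1 lay within the IL-33 range, and the log2 fold change was -0.28 ± 0.17. ZNF777, a KRAB gene on chromosome 7, was at 20.4, 12.5 and 19.4 CPM in Control and 11.8, 16 and 11.0 with IL-33. Its groups crossed in the second library of each, and its log2 fold change was -0.42 ± 0.25. None of the 12 members with the smallest p passed the adjusted threshold, as the plot of their single values shows.

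**Figure D3:**
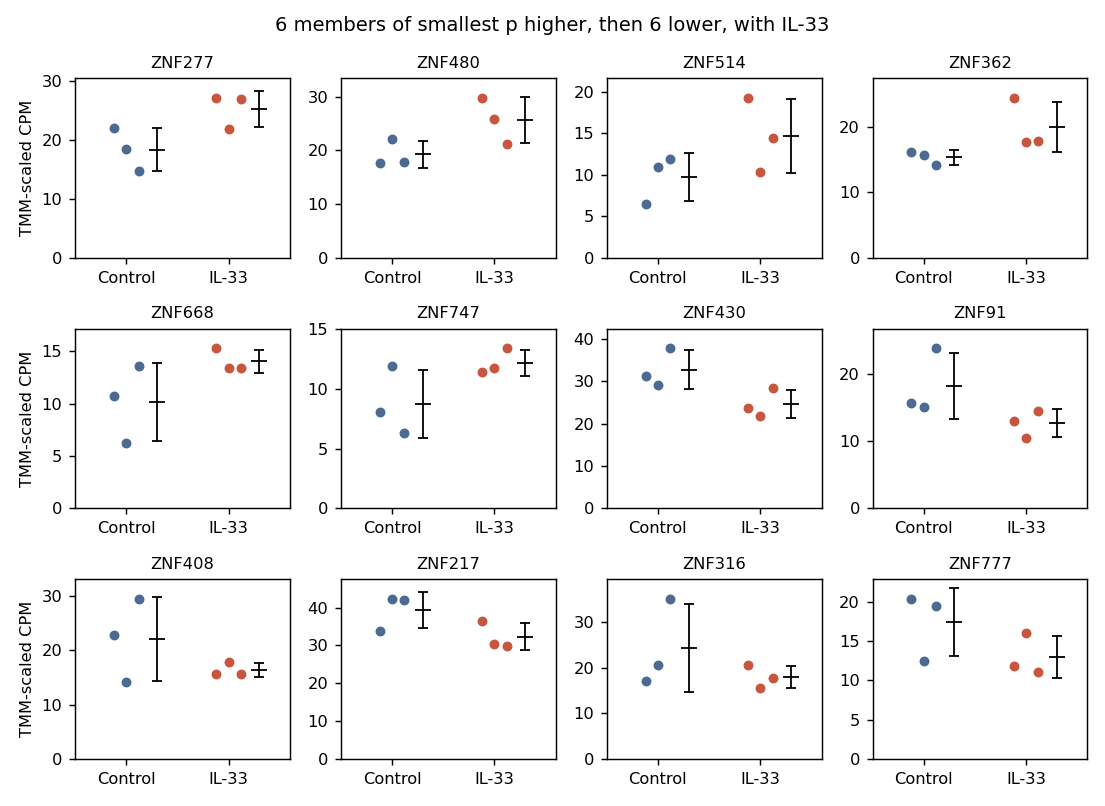
TMM-scaled CPM of 6 higher members (ZNF277 to ZNF747) and 6 lower members (ZNF430 to ZNF777), each the smallest p in its direction; points are libraries 1 to 3 of each group from left to right, and the bar is the mean ± SD (n = 3). Only in ZNF362, ZNF430 and ZNF91 do the 3 IL-33 points lie wholly to one side of the 3 Control points.

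By level, no KRAB box was found in the annotated coding sequence of any ZNF member at 100 CPM or more. A 3' tag count does not grow with transcript length, so CPM values are set side by side between genes here; they chose the members and are a description. ZNF106, an RNA-binding protein, was highest with a mean of 309 CPM, at 292, 315 and 357 CPM in Control and 304, 308 and 284 with IL-33. ZNF395 came next with a mean of 278 CPM, at 276, 258 and 266 CPM in Control and 295, 305 and 273 with IL-33 (log2 fold change 0.13 ± 0.09). Of the stretches at its 3' end, 59.5% are shared with FBXO16, which overlaps it on the same strand and held 54 counts in all. ZNF428 followed with a mean of 198 CPM, then ZNF148, a factor that binds GC-rich promoters, with 155, ZNF451 with 150 and ZNF292 with 111. All 6 had log2 fold changes between -0.10 and 0.14.

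At the other end, the threshold of 10 CPM ran through a dense part of the family. Just inside it were ZNF197 with a mean of 10.06 CPM, ZNF398 with 10.03 and ZNF317 with 10.01. Just outside were ZNF426 with 9.753 CPM, ZNF510 with 9.702 and ZNF26 with 9.592. ZNF197 was also the least steady member, with a coefficient of variation of 37.4% over the 6 libraries, at 15.1, 13.1 and 7.06 CPM in Control and 11.4, 8.40 and 5.30 with IL-33. Next came ZNF525 with 36.8%, ZNF514 with 35.3% and ZNF35 with 34.5%. In ZNF525, Control 3 stood at 23.9 CPM and the other 5 libraries between 9.33 and 13.7, and its log2 fold change of -0.23 turned to 0.24 without that library, and was -0.49 without Control 1 and -0.36 without Control 2. The steadiest members were ZNF428 (4.80%), ZNF451 (4.92%), ZNF131 (5.27%) and ZNF800 (5.41%). The median over members was 15.9%, against 13.0% for all genes at 10 CPM or more. These sets are not matched for level: the median level was 20.6 CPM in the members and 42.0 CPM in all genes at 10 CPM or more.

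Down to 1 CPM, the KRAB share of the ZNF family was higher in each lower band of level. A KRAB A box, found by its conserved residues in the GENCODE 29 coding sequence, was present in 70 of the 165 members with a coding sequence (42.4%) and in 256 of the 343 ZNF genes under 10 CPM (74.6%). It was present in 0 of 10 genes at 100 CPM or more and in 2 of 15 between 50 and 100 CPM (13.3%), ZNF655 and ZNF37A. Among the 10 is ZNF714, at 109 CPM, in whose annotated coding transcripts no box was found although its array neighbours ZNF430 and ZNF431 carry one. Between 20 and 50 CPM it was found in 22 of 62 (35.5%), and between 10 and 20 CPM in 46 of 78 (59.0%). Under the threshold the share was 77.3% between 5 and 10 CPM and 81.6% between 1 and 5 CPM, and it was 62.9% under 1 CPM. The shares describe this line and are not tested, since the level chose the members. A box that keeps too few of the conserved residues is counted as absent, so the shares may be too low. The plot of KRAB genes by level shows the gradient.

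**Figure D4:**
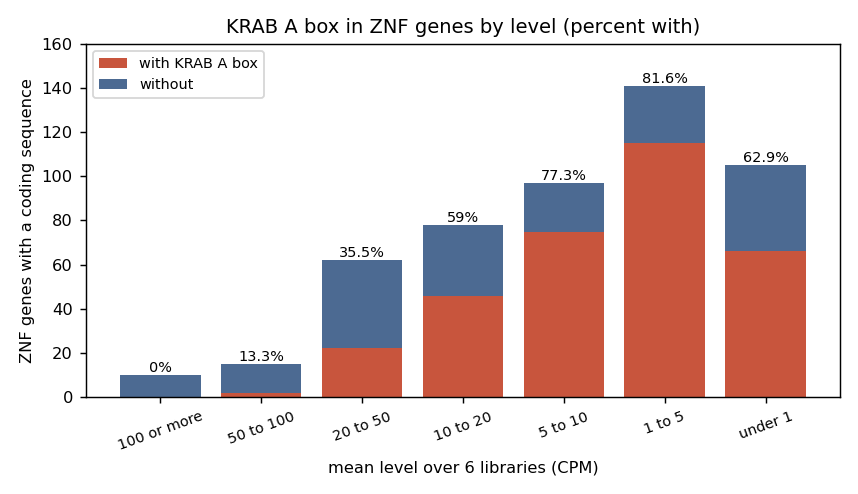
Number of ZNF genes with a coding sequence in each band of mean level (CPM over 6 libraries), split into those with a KRAB A box (red) and without (blue), with the percentage that have it above each bar. The share grows from 0% at 100 CPM or more to 81.6% between 1 and 5 CPM, and is 62.9% under 1 CPM.

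With IL-33, the median fold change was slightly lower in KRAB members than in the others. The median level was 16 CPM with the box and 26.8 CPM without. The median log2 fold change was -0.06 with the box, with 28 of 70 above 0, and -0.02 without it, with 42 of 95 above 0. The difference of medians was -0.04. Taken in each library as the median log2 deviation of KRAB members minus that of the others, it stood at 0.03, 0.01 and 0.04 in the Control libraries and at -0.03, -0.01 and -0.02 in the IL-33 libraries, with an SD within groups of 0.01. The groups did not overlap, but the difference of medians was -0.01 without Control 1, without IL-33 1 and with membership at 5 CPM, and it is a description with no test. Fingers were counted by the spacing of their cysteines and histidines and numbered from 0 to 33 per member, with a median of 12 in KRAB members and 5 in the others. The 70 members with 10 or more fingers had a median log2 fold change of -0.05, the 79 with 2 to 9 fingers -0.02, and the 16 with 0 or 1 finger 0.01.

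Those 16 show how mixed the family is. ZNF185 is a LIM-domain protein of the actin cytoskeleton, in which no C2H2 finger was found, and it was at 49.8 ± 6.94 CPM in Control and 46.6 ± 5.40 with IL-33 (SD, n = 3). ZNF738, with a KRAB box and no finger found, was at 12.1 ± 1.78 CPM in Control and 9.46 ± 4.08 with IL-33. At the far end, ZNF462 had 33 fingers, ZNF91 and ZNF142 had 31 each, and ZNF236 had 30. A SCAN domain, which pairs zinc finger proteins with each other, was found in 9 members, among them ZNF24, ZNF263, ZNF444 and ZNF496. Their median log2 fold change was -0.10, and 3 of 9 were above 0.

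Many members lie side by side in the genome. Chromosome 19 held 53 of the 167 members (31.7%) and 198 of the 363 ZNF genes under 10 CPM (54.5%). In arrays of 5 or more coding ZNF genes with gaps of at most 500000 bases lay 77 members (46.1%), with a median log2 fold change of -0.07, against -0.01 for the 90 outside them. The array that holds ZNF430 and ZNF91 spans 19668796 to 24129961 on chromosome 19 and counts 37 coding ZNF genes, of which 7 are members. It is described here after its values were seen. The median log2 fold change of the 7 was -0.25, with 5 below 0, and it stayed between -0.38 and -0.17 with each library left out in turn.

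The 7 differed in sign and size. ZNF714 was at 93.1, 109 and 135 CPM in Control and 107, 111 and 103 with IL-33 (log2 fold change -0.07 ± 0.13). ZNF431, whose coding sequence is 87.7% identical to that of ZNF430, was at 18.6, 21.9 and 17.2 CPM in Control and 20.6, 25.9 and 19.3 with IL-33. Its log2 fold change was 0.19 ± 0.21, opposite in sign to that of ZNF430, and neither passed the adjusted threshold. ZNF738 was at 13.9, 10.3 and 12.1 CPM in Control and 6.71, 7.52 and 14.1 with IL-33 (log2 fold change -0.36 ± 0.31). ZNF429 had a log2 fold change of 0.01 ± 0.27 and ZNF675 of -0.25 ± 0.25, the latter with 22.0 CPM in Control 1 and 12.8 to 15.7 CPM in the other 5 libraries. Of the 7, the groups separated in ZNF430 and ZNF91, both downward (28.6%), against 3.51% of all genes tested. Nothing is read from this share, since the array was picked after its values were seen.

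**Figure D5:**
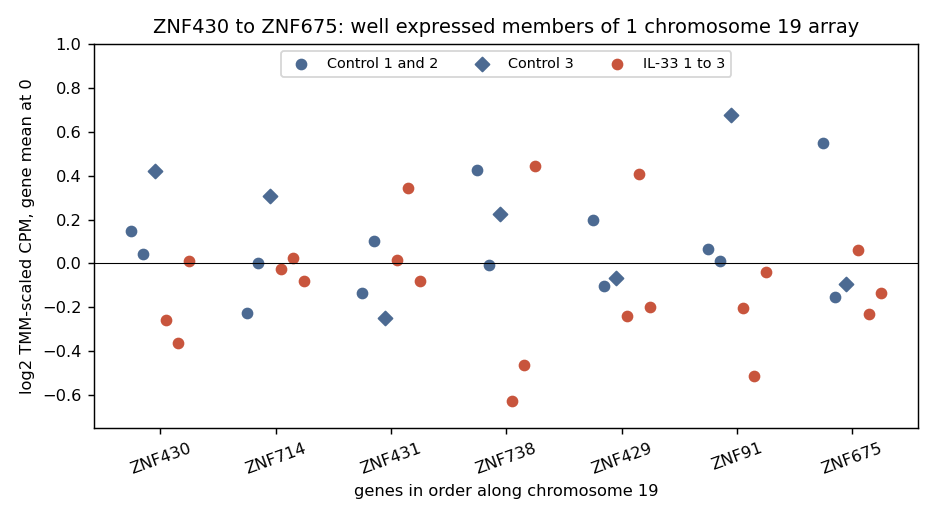
Log2 TMM-scaled CPM of the 7 members of the chromosome 19 array from ZNF430 to ZNF675, each set to a mean of 0 over the 6 libraries, in their order along the chromosome; points are libraries, Control in blue (Control 3 as a diamond) and IL-33 in red. The groups separate in ZNF430 and ZNF91 and mix in the other 5.

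Another array on chromosome 19 was highest in Control 3. It spans 55476332 to 56671783 and holds 8 members: ZNF579, ZNF865, ZNF784, ZNF580, ZNF581, ZNF787, ZNF444 and ZNF667. Their summed level, scaled to the library total alone, was 314.6 CPM in Control 3 and between 206.9 and 248.1 in the other 5 libraries. ZNF787 was at 33.4, 27.5 and 57.2 CPM in Control and 41.5, 28 and 31.2 with IL-33, and ZNF444 at 19.1, 16.7 and 31.8 CPM in Control and 18.6, 19.3 and 16.5 with IL-33. Over the 8, the median log2 fold change was -0.07 with all libraries, with 2 above 0, and 0.13 without Control 3, with 7 above 0. ZNF580 and ZNF581 overlap each other on the same strand. Of their 3' end stretches, 19.4% in ZNF580 and 1.55% in ZNF581 also occur in transcripts of other genes. How tags in the overlap were counted is not given in the sources used here, so it is uncertain whether their counts are separate measurements.

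Of the 4 members with roles on ribosomes or in the nucleolus, 0 passed the test and 2 had a log2 fold change above 0. ZNF598, a ubiquitin ligase that marks collided ribosomes, was at 45.6, 45.0 and 31.8 CPM in Control and 43.7, 40.0 and 45.9 with IL-33. Its one low value was in Control 3, and its log2 fold change of 0.07 ± 0.17 became -0.07 without that library. ZNF622 and ZNF593, which help to mature the large ribosomal subunit, had log2 fold changes of 0.07 ± 0.19 and -0.10 ± 0.18. ZNF330, a nucleolar protein, was at 25.7 ± 2.01 CPM in Control and 24.0 ± 2.27 with IL-33 (SD, n = 3), a log2 fold change of -0.09 ± 0.18.

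All 6 members with roles on RNA, in splicing or at the spindle had log2 fold changes below 0 with TMM scaling and all libraries, ZNF207 turning to 0.01 with library size alone and with limma-voom, to 0.07 without Control 3 and to 0.04 without IL-33 3. The median was -0.10, and 0 of 6 passed the test. The largest difference was in ZNF346, which binds double-stranded RNA, at 29.6, 29.3 and 48.3 CPM in Control and 34.6, 21.4 and 31.2 with IL-33. Its log2 fold change was -0.29 ± 0.22, and it was -0.02 without Control 3, -0.44 without IL-33 1 and -0.11 without IL-33 2. ZNF207, a spindle assembly factor that carries BUB3, was at 106 ± 10.3 CPM in Control and 106 ± 6.01 with IL-33 (SD, n = 3). ZNF326, part of a complex that links elongation to splicing, was at -0.10 ± 0.14, and ZNF638, at -0.07 ± 0.14, turned to 0.02 without Control 2 or without IL-33 2. ZNF385A, a cofactor of p53, was at -0.18 ± 0.29, with a level of 10.6 CPM. With a library left out it ran from -0.35 without IL-33 3 to -0.02 without IL-33 2, and it was -0.34 without Control 1 and -0.06 without Control 2.

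Of the 9 promoter-binding factors, 5 were above 0, with a median log2 fold change of 0.09, and 0 passed the test. ZNF24 was at 92.7, 86.8 and 88.5 CPM in Control and 97.6, 98.9 and 88.2 with IL-33 (log2 fold change 0.09 ± 0.11). ZNF281 was at 94.0, 113 and 85.4 CPM in Control and 87.0, 101 and 99.5 with IL-33 (log2 fold change -0.02 ± 0.13). In both genes the groups overlapped. ZNF410, which activates CHD4 of the NuRD complex, was at 21.3, 32.3 and 16.3 CPM in Control and 30.5, 23.2 and 28.3 with IL-33, at 0.22 ± 0.23, and 53.6% of its 3' end stretches occur elsewhere. Its log2 fold change was 0.03 without Control 3, 0.53 without Control 2 and 0.13 without IL-33 1. CHD4 itself was at 434 ± 22.1 CPM in Control and 438 ± 6.06 with IL-33 (SD, n = 3). ZNF143 and its paralogue ZNF76, which bind the same promoter element, had log2 fold changes of 0.15 ± 0.25 and 0.25 ± 0.19. ZNF143 was at 0.09 without Control 2, 0.30 without IL-33 1 and -0.01 without IL-33 3, and ZNF76 at 0.12 without Control 3. ZNF263 stood at 0.13 ± 0.21, ZNF131 at -0.06 ± 0.13 and ZNF148 at -0.08 ± 0.12.

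Among the developmental regulators, ZNF503 was at 111, 114 and 101 CPM in Control and 100, 103 and 126 with IL-33, with a log2 fold change of 0.01 ± 0.12. Its relative ZNF703, a breast cancer oncogene, was spread widely inside each group, at 22.7, 15 and 39.1 CPM in Control and 28.2, 33.4 and 20.7 with IL-33. ZNF292, a growth suppressor in tumours, was at 0.14 ± 0.11, ZNF462 at -0.04 ± 0.20 and ZNF827, which brings NuRD to telomeres, at -0.02 ± 0.13. ZNF423 and ZNF521, of the same list, had 0 counts in all 6 libraries, where 3 counts would equal 0.294 to 0.523 CPM. ZNF592, a partner of the chromatin reader ZMYND8, was a member at 12.8 CPM with a log2 fold change of -0.16 ± 0.25 (-0.29 if IL-33 2 is left out, -0.05 if IL-33 3 is), while its relatives ZNF532 (4.13 CPM) and ZNF687 (0.337 CPM) were under the threshold.

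Of the KRAB silencers of repeats and imprints, 4 were members and 5 of the list lay under 10 CPM. ZNF445, which keeps imprints, was at 19.5, 25.5 and 25 CPM in Control and 16.7, 21.9 and 25.7 with IL-33, at -0.12 ± 0.21. ZNF274, which brings SETDB1 to the ends of ZNF genes, was at 13.3, 10.7 and 7.24 CPM in Control and 12.3, 10.2 and 10.1 with IL-33, at 0.04 ± 0.28. ZNF141 was at 17.9 ± 2.06 CPM in Control and 19 ± 1.01 with IL-33, at 0.08 ± 0.21. With ZNF91, described above, no member of this list passed the test. ZNF93, a silencer of LINE elements, lay just under the threshold with 8.04, 7.57 and 7.42 CPM in Control and 8.31, 12 and 11.4 with IL-33 (log2 fold change 0.46 ± 0.29).

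The corepressors that KRAB proteins work through were all detected, from SUV39H2 with a mean of 6.23 CPM to CBX3 with 481. Of 29 listed corepressors and heterochromatin partners all 29 were tested and 0 called, with a median log2 fold change of 0.00 and 13 above 0. TRIM28 was at 169, 169 and 167 CPM in Control and 157, 161 and 175 with IL-33 (log2 fold change -0.03 ± 0.10), and its groups overlapped. SETDB1 was at 17.6, 16.5 and 7.06 CPM in Control and 16, 12 and 13.7 with IL-33, with its lowest value in Control 3. Its log2 fold change of 0.00 was -0.30 without that library and 0.22 without Control 1. The list's smallest p was that of EHMT1, a histone H3 methyltransferase, at 37.7, 34.1 and 34.6 CPM in Control and 25.5, 27.6 and 26.9 with IL-33. Its log2 fold change was -0.41 ± 0.17 (SE; edgeR unadjusted p = 0.022, adjusted p = 0.999), which did not pass. Of the 29, the groups did not overlap in 1 gene upward (DNMT1) and in 2 downward (EHMT1 and ADNP). Over all genes tested these shares were 4.54% upward and 3.51% downward, and nothing is read from so few genes. CBX1, one of the heterochromatin proteins, was at -0.14 ± 0.10, ADNP at -0.16 ± 0.12 (-0.07 without Control 2) and the DNA methyltransferase DNMT1 at 0.12 ± 0.09.

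Promoters of 300 bases, from 250 before to 50 after the start of transcription (RefSeq), were found for 145 of the 167 members. The NF-kB consensus motif, read on both strands, was present in 23 of them (15.9%), in 13.0% of the promoters of genes tested and in 10.8% of all promoters. The GC box GGGCGG, also on both strands and free to overlap it, was in 94 (64.8%), against 72.1% and 44.6%. A match is a description of the sequence and says nothing of a factor's binding.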

How the data were processed

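RNA from HMC3 cells was extracted with TRIZOL and made into Lexogen QuantSeq 3' FWD libraries, per the labels' protocols. The authors deposited 1 table of read counts per gene symbol for 6 libraries. Per the submitters' processing notes, the tools were STAR 2.7.5a, HTSeq 0.6.1 and edgeR and the build hg38, with no role stated; for the annotation and the strand setting the sources used here give nothing. The kit marks strand, but without that setting counts of genes that overlap in antisense (37 members) are uncertain. 1 row held no values and was left out.

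IL-33 was compared with Control in edgeR 4.0.16 under R 4.3.3 (filterByExpr with a count minimum of 10 and a total minimum of 15, TMM, robust quasi-likelihood test with group as the sole term, Benjamini-Hochberg over 12125 genes at 0.05). Errors of fold changes are standard errors, and intervals are at 95%. DESeq2 1.42.0 and limma-voom (limma 3.58.1) were alternatives, as were other scalings, filters, thresholds and memberships, a replicate block and each library left out. The edgeR fit was also run 3 times on counts simulated from the fitted means and dispersions, with known changes put in. At 10 CPM or more it called 54 of 141 changes of 1.5-fold (38.3%) and 115 of 135 of 2-fold (85.2%). Of 4-fold changes it called 132 of 135 (97.8%). Changes of 1.5-fold or less can thus be missed, and some of 2-fold were missed as well. Many genes were changed at once in these runs, which eases the adjusted threshold. In the real data no gene was called, so a lone change in a member may be found less often than these shares say. The genes in these runs were also not matched to the members for level.

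GENCODE release 29 (GRCh38) gave positions and coding sequences by gene symbol. A KRAB box was called at 10 or more of 15 conserved residues and SCAN at 10 or more of 13, and C2H2 fingers by spacing; a RefSeq protein table had been planned for this and was not used here. The 3' end check used 50-base stretches of the last 500 bases of transcripts. Of the corepressors, TASOR was found under its older symbol FAM208A through the RefSeq table.

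The members and lists were chosen with earlier results of these data known. Named were members past the threshold, the 6 with the smallest p in each direction, the 6 highest, the 3 on each side of 10 CPM, the 4 largest and 4 smallest coefficients of variation, members of the role lists, and of the corepressors TRIM28, SETDB1 and the 4 with the smallest p. Others were named after their values were seen.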

Additional observations from a re-analysis of the deposited data

How the results depend on the processing

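No member was called under any setting tried, and the members' median log2 fold change stayed between -0.05 and -0.02. The number of members at an unadjusted p under 0.05, 2 with all libraries, was 4 with no low-count filter, 1 with DESeq2 and 7 in the larger set at 5 CPM. It lay between 1 and 7 with a library left out: 7 without Control 2 (3 higher, 4 lower) and 7 without Control 3 (6 higher, 1 lower). For the fits with no low-count filter or a library left out, the shares over all genes are not given here. Nothing is therefore read from these counts or their directions. The number of members whose groups do not overlap, 10, was 28 in the larger set at 5 CPM and 5 in the smaller set at 20 CPM. It was 23 to 36 with a library left out, where fewer libraries have to separate. The shares of all genes that separate with a library left out are not given here, so nothing is read from these counts. Over all genes, 0 were called, against 3 with no low-count filter and 0 to 6 with a library left out, the 6 without Control 3. The median of KRAB members minus that of the others, -0.04, was -0.02 with limma-voom and -0.01 at 5 CPM, and between -0.06 and -0.01 with a library left out. Where not stated, the cause was not tested.

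The sources used here do not say that the replicate numbers mark pairs. As deviations from the group means over all genes tested, same-numbered libraries had correlations of -0.0861, 0.0267 and -0.136. Not every library correlated best with its own number. Deviations from a mean of 3 libraries depend on one another, so these values cannot decide whether the libraries were paired. With the replicate number as a block, 1 member stood at an unadjusted p under 0.05 and the KRAB difference was -0.06, and it changed no call.

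Of 54 named genes, 34 kept their sign under all 13 settings, 17 changed sign and 3 were at 0.00 in at least 1 fit, and 0 were called under any. The 3 are SETDB1, which ran from -0.30 to 0.22 with a library left out, ZNF141, at 0.00 without Control 3, and TRIM28, at 0.00 without IL-33 1. With a library left out, the log2 fold changes of the 17 ran from -0.02 to 0.07 (ZNF428), -0.16 to 0.02 (ZNF148), -0.49 to 0.24 (ZNF525), -0.07 to 0.16 (ZNF598), -0.11 to 0.19 (ZNF622), -0.21 to 0.12 (ZNF593), -0.05 to 0.07 (ZNF207), -0.17 to 0.02 (ZNF638), -0.01 to 0.30 (ZNF143), -0.11 to 0.10 (ZNF281), -0.04 to 0.28 (ZNF263), -0.12 to 0.09 (ZNF462), -0.10 to 0.08 (ZNF503), -0.15 to 0.54 (ZNF703), -0.09 to 0.04 (ZNF827), -0.27 to 0.03 (ZNF445) and -0.15 to 0.26 (ZNF274). ZNF207 was also at 0.01 with library size alone and with limma-voom. The median standard error was 0.12 in the 25 members at 50 CPM or more, 0.20 in the 63 between 20 and 50 CPM, 0.25 in the 79 between 10 and 20 CPM and 0.46 in ZNF genes under 10 CPM.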

Other observations

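The 243 ZNF genes under 10 CPM that passed the filter had log2 fold changes with a median of -0.03, 116 of them above 0 and 0 called, with 8 (3.29%, against 2.43% of all genes tested) at an unadjusted p under 0.05 (edgeR; 2 higher, 6 lower). Their groups did not overlap in 11 genes upward (4.53%, against 4.54% of all genes tested) and in 19 downward (7.82%, against 3.51%). The precision was lower, with a 95% interval between -1 and 1 in 24.7% of them.

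Other zinc finger families of the same fold were fewer. The median log2 fold change was -0.03 in 14 ZFP genes, -0.06 in 36 ZBTB genes, -0.12 in 14 ZSCAN genes and -0.01 in 7 ZKSCAN genes, and 0 of these genes were called. Of the ZBTB genes 11 (30.6%) were above 0, and 1 of the 36 (2.78%), lower, stood at an unadjusted p under 0.05 (edgeR). So did 1 of the 7 ZKSCAN genes (14.3%), higher, and 0 of the ZFP and ZSCAN genes, against 2.43% of all genes tested.

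A further 50 ZNF genes had 0 counts in all 6 libraries. Among the members are 2 pseudogenes: ZNF271P, at 30.3 CPM with a log2 fold change of -0.13 ± 0.19 (SE), and ZNF252P, at 13.2 CPM with 0.06 ± 0.24.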
